A study of Mus musculus with 12 samples.

Results

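The proteasome is the protease complex that degrades ubiquitin-tagged proteins, and the RNA of its core and regulatory subunits was read in 12 mouse libraries. Subunit genes were taken by symbol, as all genes named Psma, Psmb, Psmc or Psmd with a number. Psmb8, Psmb9 and Psmb10, which replace core subunits in the immunoproteasome, were left out, and a mean of at least 1 CPM (the count scaled to the library total) over all libraries was required. Of 39 symbols of this form in the GENCODE M21 annotation, 34 genes qualified, out of 13597 features with that mean level and 54100 features shared by all libraries. Of the 5 others, 3 were the immunoproteasome genes, Psma8, a testis subunit, had 0 counts in all 12 libraries (which allows up to 0.154 to 0.187 CPM by library, counting error only), and Psmb11, a thymus subunit, had 1 to 9 counts in a library.

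The core particle is a barrel of stacked rings. Its outer rings are made of alpha subunits (Psma genes), which gate the entrance, and its inner rings of beta subunits (Psmb genes), of which Psmb5, Psmb6 and Psmb7 carry the active sites. The regulatory particle caps the barrel: the ATPases of its base (Psmc genes) unfold the substrate, Psmd1 and Psmd2 form the scaffold of the base, Psmd4 is a ubiquitin receptor, and the lid holds the deubiquitinase Psmd14. Psmd5, Psmd9 and Psmd10 are chaperones that assemble the base and are not part of the finished complex. Subunit genes are known to be induced together by the transcription factor Nfe2l1 (NRF1), which acts with small Maf proteins, when proteasome activity falls short.

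The series concerns the kinase CK1α (gene Csnk1a1) and holds 6 groups of 2 libraries, all with the genotype label C57BL/6J. Libraries treated with SSTC3, a compound known as a CK1α activator, are set against libraries treated with its solvent DMSO. The labels call the cells of these 4 libraries BMDM, bone marrow-derived macrophages, and carry the names TREX1-KO, TREX2-KO, TREX3-KO and TREX4-KO, each on 1 library. Libraries labelled CK1α overexpression are set against an overexpression control, and libraries with CK1α knockdown by siRNA against a knockdown control, both in cells labelled MEF, mouse embryonic fibroblasts. Neither dose, time, construct, siRNA sequence nor clone is stated in the sources used here, and nothing says that replicates came from separate cultures, so the spread behind each p-value is that among these libraries and may be technical.

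Library totals ran from 16063627 to 19427506 counts. Csnk1a1 had 171.5 and 169.2 CPM in knockdown libraries, against control levels of 325.0 and 354.1 CPM. Csnk1a1 had 426 and 424 CPM with SSTC3, against 413 and 430.0 CPM with DMSO. It had 229.3 and 244.4 CPM in libraries labelled CK1α overexpression, against control levels of 237.8 and 234.7 CPM, so the counts do not bear out that label, and directions in that comparison rest on it alone. The labelled cell type was also checked. In the 4 libraries labelled BMDM, 18 macrophage markers summed to 9.14 to 11.2 CPM, with 7 to 11 of them at 0, while 14 fibroblast markers summed to 8409 to 9560 CPM with at most 1 at 0. In the 8 libraries labelled MEF the fibroblast sum was 3573 to 4533 CPM, while macrophage markers reached 14.2 to 17.0 CPM where overexpression was compared and 255 to 309 CPM where knockdown was. Of the 14 fibroblast markers, 1 to 4 were at 0 in a library labelled MEF. Where knockdown was compared, the median fibroblast marker was at 10.3 to 13.4 CPM, against 96.4 to 135 CPM in libraries labelled BMDM. Vim made up most of the sum there (means of 3510 CPM with knockdown and 2653 CPM in controls), and Twist1 was at 0. The sum alone therefore says little about the MEF label of those libraries. Which gene levels belong to the cell source, the treatment batch or the files of a set cannot be told apart across sets, so effects were measured only within each set.

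Some subunit genes share sequence with processed copies elsewhere in the genome, which bears on what a count means, so the clearest case is shown first. The transcript of Psmb5 matched the processed pseudogene Gm3375 over 796 aligned positions with 98.9% identity. The stretches below are 120 bases of the Psmb5 coding sequence (mm10, minus strand, chr14:54616633-54616752) and the matching bases of Gm3375 (mm10, plus strand, chr7:3181361-3181480), from GENCODE M21, with the 3 differing bases in capitals.
Psmb5: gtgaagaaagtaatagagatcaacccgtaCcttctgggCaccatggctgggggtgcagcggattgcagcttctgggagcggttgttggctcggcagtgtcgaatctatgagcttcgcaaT
Gm3375: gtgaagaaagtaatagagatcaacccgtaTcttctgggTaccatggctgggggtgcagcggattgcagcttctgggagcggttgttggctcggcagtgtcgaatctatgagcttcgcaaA
Reads from such a stretch can be assigned to either gene. Gm3375 held between 44.4% and 55.8% of the summed CPM of Psmb5 and Gm3375, over the 12 libraries. Gm13835, which is 100% identical to Psma3 over 665 bases, held between 29.7% and 36.2% of the sum of that pair. The copies matching Psma5, Psmb3, Psmc1 and Psmd11 at 97% identity or more held less of such sums, at most 9.6% for any of them. Levels of Psmb5 and Psma3 are therefore uncertain, and their effects were also computed with the counts of the copies added, an alternative chosen after the data were seen.

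Promoters of 2 catalytic subunits are shown because both genes were lower in knockdown libraries and both hold a match to TGACNNNGC, the core of the antioxidant response element bound by Nfe2l1 and its relative Nfe2l2. Each stretch is the 150 bases before the transcript start in RefSeq (GRCm38.p6), for Psmb5 on the minus strand at chr14:54617996-54618145 and for Psmb6 on the plus strand at chr11:70525207-70525356, with the match in capitals.
Psmb5: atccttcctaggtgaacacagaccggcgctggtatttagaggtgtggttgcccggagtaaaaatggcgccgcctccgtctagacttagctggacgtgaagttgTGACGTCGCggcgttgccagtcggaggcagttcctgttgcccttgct
Psmb6: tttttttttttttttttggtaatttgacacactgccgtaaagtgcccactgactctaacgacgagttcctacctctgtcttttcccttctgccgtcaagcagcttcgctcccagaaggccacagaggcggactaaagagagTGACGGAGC
Over promoter windows of 300 bases (250 before to 50 after the start, both strands), this motif was found for 5 of the 28 members with a window, 17.9%, against 13.99% of 27025 genes. The members were Psmb5, Psmb6, Psmc6, Psmd9 and Psmd12. Of these, Psmc6 (−0.11 on the log2 scale), Psmd9 (−0.08) and Psmd12 (−0.05) did not pass as higher or lower with knockdown, by the threshold given below. Psmb1, Psmb2, the catalytic Psmb7, Psmc3, Psmd3 and Psmd7 had no window and were not searched. The pair shown was chosen with the knockdown result known, and a link between this motif and the changes was not tested. The NF-Y box CCAAT was found for 11 of 28 members, 39.3%, against 41.1% of genes. An inverted-repeat heat shock element was found for 0 of 28 members and 0.662% of genes. These shares lie near those of all genes, and a match is a description of letters, not a site.

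Proteasome subunit transcripts are abundant in all groups. In bulk RNA, fewer cells of a type and less RNA per cell cannot be told apart. The 34 members summed to 0.563% of counts with SSTC3 and 0.610% with DMSO, to 0.614% in libraries labelled CK1α overexpression and 0.619% in their controls, and to 0.500% in knockdown and 0.503% in control libraries. By library, the sum was 5615 and 5638 CPM with SSTC3, against 6164 and 6044 CPM with DMSO. It was 5021 and 4979 CPM in knockdown libraries, against control sums of 5119 and 4932 CPM, so those 2 groups overlap, while both SSTC3 libraries lie below both DMSO libraries. Libraries labelled CK1α overexpression had 6203 and 6086 CPM, against control sums of 6175 and 6208 CPM. These sums are scaled to library totals. With that scaling in edgeR, the median log2 fold change with SSTC3 was −0.04 for all genes and −0.14 for the members.

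Levels of different genes are compared per kilobase of exon (CPM per kb). Psmd2, a scaffold of the base, was highest with SSTC3 at 159 CPM per kb and with DMSO at 175 CPM per kb. The alpha subunit Psma6 was highest in the other 4 groups, at 175 CPM per kb in libraries labelled CK1α overexpression and 182 in their controls, and at 248 CPM per kb in knockdown and 315 in control libraries. The chaperones Psmd9 and Psmd5 were lowest or near lowest everywhere. Psmd9 had 7.14 to 8.24 CPM per kb in the 6 groups and Psmd5 had 6.24 to 16.3. With SSTC3, core subunits had a median of 61.3 CPM per kb, subunits of the regulatory particle 53.6 and chaperones 11.7, and the same order held in each of the other 5 groups.

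**Figure D1:**
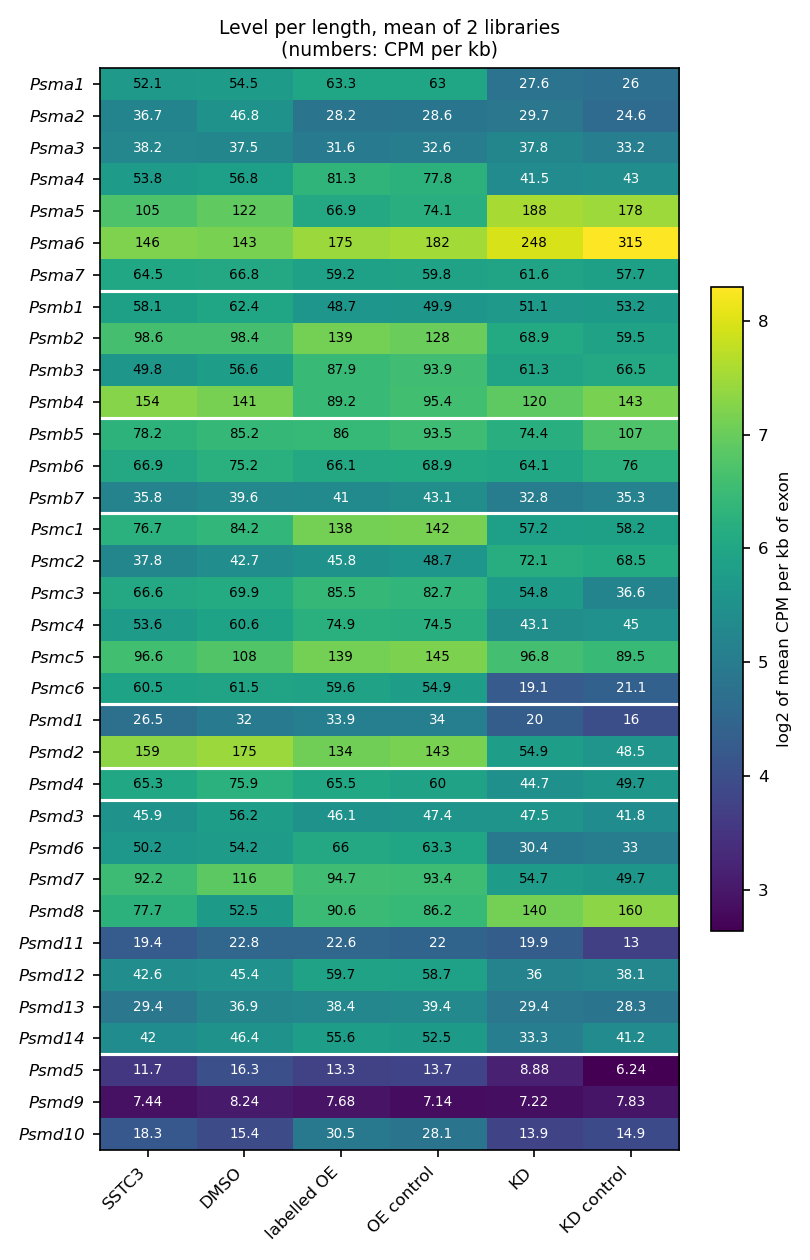
Level of each of the 34 genes (rows, by role, separated by white lines) in the 6 groups (columns, SSTC3, DMSO, libraries labelled CK1α overexpression, their control, knockdown, its control), as mean CPM per kb of exon over 2 libraries. Psma6 reaches 315 CPM per kb in knockdown controls, and the chaperones in the bottom rows stay at or below 30.5.

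The 3 control groups, which received no CK1α treatment, already differed in single subunits while keeping much of the order. Spearman's rho of levels per kb over the 34 genes was 0.87 between DMSO and overexpression controls, 0.75 between DMSO and knockdown controls, and 0.77 between the control groups of the MEF sets. Psmd2 differed most, with a mean of 708 CPM with DMSO, 576 in overexpression controls and 196 in knockdown controls, a ratio of 3.62 between highest and lowest. The lid subunit Psmd8 ran the other way, with means of 161, 263 and 489 CPM in these groups. The ATPase Psmc6 (215, 192 and 73.7 CPM) and the chaperone Psmd5 (118, 99.1 and 45.1 CPM) were lowest in knockdown controls. Psmb6, at a ratio of 1.1 between the highest and lowest control group, varied least. These levels describe 3 sets of libraries whose cells and handling may differ, and were not tested.

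The first comparison, SSTC3 against DMSO, addresses the response to CK1α activation. With SSTC3 most called subunits were slightly lower, and 1 lid subunit stood well above the rest: Psmd8 was 53.7% higher, while the chaperone Psmd5 changed by −25.1% and the alpha-ring subunit Psma2 by −18.7%. Of 34 members, 3 rose, 14 fell and 17 did not pass an adjusted p of 0.05. Among all 14151 genes tested, 53.6% passed, 27.1% higher and 26.5% lower. The median log2 fold change of the members was −0.09, against 0.01 for all genes. A change past the threshold and of 1.5-fold or more was seen for 1 member, Psmd8, against 20% of all genes. The fibroblast markers summed to 8409 and 8488 CPM with SSTC3, against 9560 and 9273 CPM with DMSO. Single markers moved both ways. On average Col1a1 had 2250 CPM with SSTC3, against 2784 CPM with DMSO, and Col1a2 had 915 against 1480 CPM. Vim had 2927 CPM with SSTC3, against 2552 CPM with DMSO, and Fn1 had 1169 against 1007 CPM. The part of these markers in the subunit differences was not tested.

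Psmd8, a lid subunit, had 244 and 240.3 CPM with SSTC3, against 162 and 153 CPM with DMSO (here and below, CPM scaled by TMM within a comparison). Both SSTC3 libraries lie above both DMSO libraries, and the difference was 0.62 ± 0.04 on the log2 scale (SE from 2 libraries in each group; edgeR adjusted p = 1.8e-32). The 7 other lid subunits moved the other way or did not pass. Psmd7, the partner of the deubiquitinase, fell to 213 and 212 CPM with SSTC3, against 266 and 250.7 CPM with DMSO (−0.28 ± 0.04, adjusted p = 7.51e-10). Psmd13 fell by 0.27 ± 0.05 on the log2 scale, Psmd3 by 0.24 ± 0.04 and Psmd11, which clamps lid to core, by 0.17 ± 0.05. The Psmd11 call ended without SSTC3 replicate 1 (adjusted p = 0.108). Psmd14, the deubiquitinase that removes ubiquitin from the substrate, had 122 and 119 CPM with SSTC3, against 125 and 132 CPM with DMSO, and did not pass (−0.09 ± 0.05, adjusted p = 0.129). Psmd6 (−0.06 ± 0.05) and Psmd12 (−0.03 ± 0.05) did not pass either.

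In the base, both scaffold subunits fell. Psmd1 had 199 and 194 CPM with SSTC3, against 227 and 229 CPM with DMSO (−0.22 ± 0.04, adjusted p = 3e-06), and Psmd2 fell by 0.09 ± 0.04 on the log2 scale. Of the 6 ATPases 3 fell, by small amounts. Psmc2 had 195 and 193 CPM with SSTC3, against 210.1 and 211 CPM with DMSO (−0.12 ± 0.04, adjusted p = 0.0132), and Psmc4 and Psmc5 fell by 0.12 and 0.11 on the log2 scale. The ubiquitin receptor Psmd4 fell to 189.7 and 184 CPM with SSTC3, against 211 and 207 CPM with DMSO (−0.16 ± 0.04, adjusted p = 0.000719). The calls of Psmc2 and Psmd2 ended without either SSTC3 library (adjusted p up to 0.0795 and 0.182), that of Psmd2 also without DMSO replicate 1. Those of Psmc4 and Psmc5 ended without SSTC3 replicate 1, without DMSO replicate 1, and with DESeq2 or limma-voom (adjusted p up to 0.415 and 0.33). The Psmc4 call also ended without SSTC3 replicate 2, and the Psmc5 call without DMSO replicate 2.

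The 3 chaperones of the base went separate ways. Psmd5 had 86.3 and 86.5 CPM with SSTC3, against 113 and 117 CPM with DMSO, the largest fall among the members (−0.42 ± 0.05, adjusted p = 3.76e-12). Psmd10 (gankyrin) had 27.4 and 27.5 CPM with SSTC3, against 22.5 and 22.0 CPM with DMSO (0.30 ± 0.10, adjusted p = 0.00493), a call that DESeq2 did not make (adjusted p = 0.0608). Psmd9 did not pass (−0.09 ± 0.07).

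The core particle changed less. Of 7 alpha subunits 2 fell: Psma2 had 135 and 139 CPM with SSTC3, against 171 and 167 CPM with DMSO (−0.30 ± 0.05, adjusted p = 7.21e-09), and Psma5 fell by 0.16 ± 0.05. Among structural beta subunits, Psmb4 rose to 308 and 305 CPM with SSTC3, against 278 and 261 CPM with DMSO (0.19 ± 0.04, adjusted p = 1.99e-05), and Psmb3 had 117 CPM in both SSTC3 libraries, against 133 and 122 CPM with DMSO (−0.13 ± 0.05, adjusted p = 0.0273). The Psmb3 call ended without either SSTC3 library, without DMSO replicate 1 and with DESeq2 (adjusted p up to 0.396).

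The 3 catalytic subunits did not pass with TMM scaling in edgeR, where 1 of them, Psmb6, was lower at an unadjusted p under 0.05, a threshold that 57.9% of all genes passed in either direction. Psmb5, the chymotrypsin-like site, had 69.5 and 73.8 CPM with SSTC3, against 79.7 and 70.5 CPM with DMSO (−0.07 ± 0.06, adjusted p = 0.359). Psmb6, the caspase-like site, had 127 and 128 CPM with SSTC3, against 149 and 127 CPM with DMSO (−0.11 ± 0.05, adjusted p = 0.0503), and Psmb7, the trypsin-like site, 125 and 126 CPM with SSTC3, against 135 and 130.2 CPM with DMSO (−0.09 ± 0.05, adjusted p = 0.134). For Psmb5 and Psmb6 the SSTC3 and DMSO libraries overlap. Psmb6 passed as lower with RLE scaling (adjusted p = 0.0385), library totals (0.00281), no filter (0.0258) and without DMSO replicate 2 (−0.22, adjusted p = 0.000434), while without DMSO replicate 1 it was at 0.00 (adjusted p = 0.963). Psmb7 passed as lower with library totals (adjusted p = 0.0104). With the counts of its copy added, Psmb5 passed as lower (−0.16, adjusted p = 0.00278), and Gm3375 itself was lower (−0.23 ± 0.06, adjusted p = 0.000298). Psma3 passed as higher once its copy was added (0.11, adjusted p = 0.0174), while alone it did not (0.08 ± 0.05, adjusted p = 0.138).

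**Figure D2:**
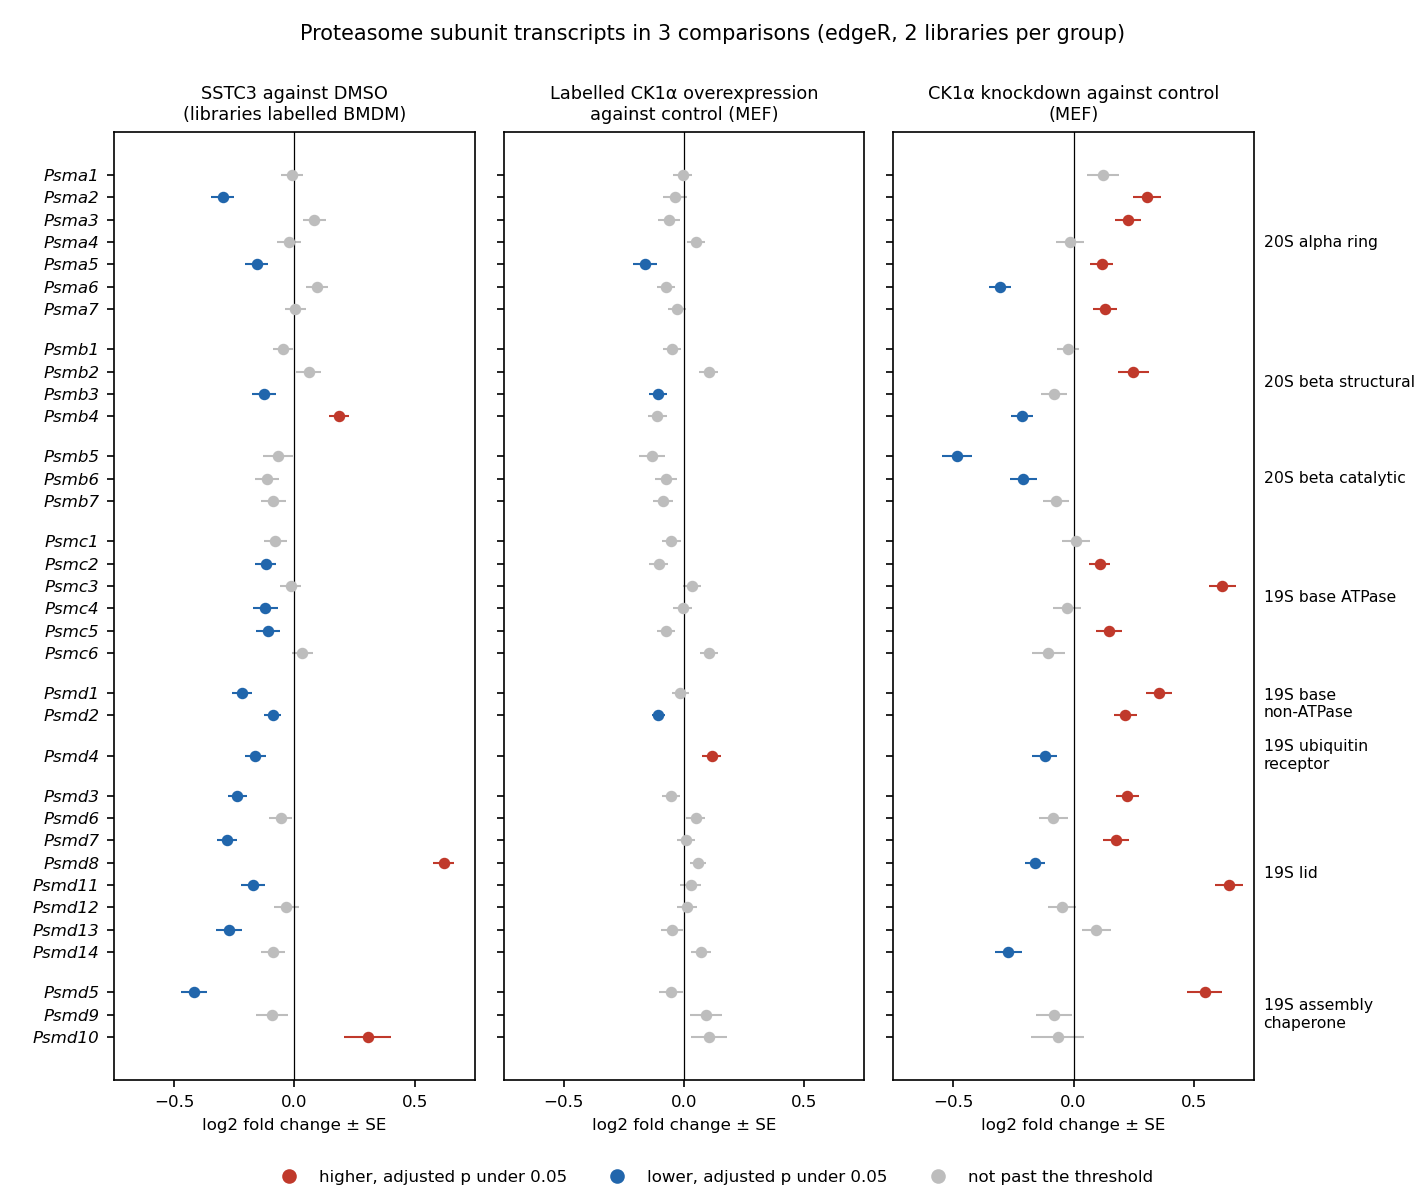
Log2 fold change ± SE of each of the 34 genes, grouped by role, with SSTC3 against DMSO, with labelled CK1α overexpression against its control and with CK1α knockdown against its control (n = 2 libraries per group). Red and blue mark genes past an adjusted p of 0.05 as higher or lower: 3 and 14 with SSTC3, 1 and 3 with labelled overexpression, 14 and 7 with knockdown.

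Genes that work with the proteasome were also read. Of 38 tested companion genes (activators, assembly chaperones, shuttle factors, ubiquitin genes and regulators of subunit transcription), 15 rose and 10 fell with SSTC3, against 53.6% of all genes past the threshold. Nfe2l1 rose by 0.24 ± 0.04 on the log2 scale, and Nfe2l2 did not pass (0.11 ± 0.06). All 3 small Maf partners of Nfe2l1 on the list rose. Maff had 154 and 149 CPM with SSTC3, against 4.88 and 5.89 CPM with DMSO (4.81 ± 0.09, adjusted p = 9.17e-143). Mafk rose by 2.08 ± 0.07 and Mafg by 0.63 ± 0.05 on the log2 scale. Zfand2a, a stress-induced partner of the proteasome, had 209 and 214 CPM with SSTC3, against 43.2 and 41.1 CPM with DMSO (2.33 ± 0.06), and its relative Zfand5 rose by 1.02 ± 0.04. The polyubiquitin gene Ubb rose by 0.49 ± 0.04. The segregase Vcp, which pulls ubiquitinated proteins from complexes and membranes, fell by 0.34 ± 0.04, the shuttle factor Ubqln4 by 0.46 ± 0.04, the activator Psme4 by 0.34 ± 0.05 and the proteasome-bound deubiquitinase Usp14 by 0.26 ± 0.05.

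The comparison of libraries labelled CK1α overexpression with their controls asks what more CK1α does in MEF. The ubiquitin receptor Psmd4 was higher and 3 subunits were lower: Psma5, Psmb3 and Psmd2. Thus 1 of 34 members rose and 3 fell, 11.8% of the members, against 13.3% of 13958 genes past the threshold, 5.78% higher and 7.57% lower. The median over members was −0.03, against 0.00 for all genes. The change farthest from 0 among members was that of Psma5 (−0.16), while 1.5% of genes passed with a change of 1.5-fold or more. The fibroblast markers summed to 3978 and 3981 CPM in libraries labelled CK1α overexpression, against 4533 and 4498 CPM in controls, and the part of this in the subunit differences was not tested. With library totals as the scaling, 3 members were higher and 2 lower, and with DESeq2 0 were higher and 1 lower. At an unadjusted p under 0.05, edgeR had 3 members higher and 8 lower, against 25.8% of all genes in either direction.

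Psma5 had 90.5 and 85.4 CPM in libraries labelled CK1α overexpression, against 97.3 and 99.3 CPM in their controls (−0.16 ± 0.05, adjusted p = 0.0243). Psmd2 had 537 CPM in both libraries labelled CK1α overexpression, against 584 and 574 CPM in controls (−0.11 ± 0.03, adjusted p = 0.0051). Psmb3 had 207 and 196 CPM in libraries labelled CK1α overexpression, against 216 and 218 CPM in controls (−0.11 ± 0.04, adjusted p = 0.0449). Psmd4 had 187 and 179.8 CPM in libraries labelled CK1α overexpression, against 165 and 173 CPM in controls (0.12 ± 0.04, adjusted p = 0.0449). In these 4 genes the groups do not overlap, yet each call ended on leaving out at least 1 library: Psma5 and Psmb3 without overexpression replicate 2 or either control, Psmd2 without control replicate 1, and Psmd4 without overexpression replicate 1 or control replicate 1. Over all settings the adjusted p reached 0.229 for Psma5, 0.109 for Psmd2, 0.351 for Psmb3 and 0.382 for Psmd4.

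Catalytic subunits did not pass there. Psmb5 had 80.0 and 73.9 CPM in libraries labelled CK1α overexpression, against 81.1 and 87.7 CPM in controls (−0.13 ± 0.06, adjusted p = 0.101), and passed as lower with its copy added (−0.17, adjusted p = 0.00499). Psmb6 had 123 CPM in both libraries labelled CK1α overexpression, against 126 and 133 CPM in controls (−0.07 ± 0.04, adjusted p = 0.303). Psmb7 had 144 and 136 CPM in libraries labelled CK1α overexpression, against 148 CPM in both controls (−0.09 ± 0.04, adjusted p = 0.184). In each of these genes both libraries labelled CK1α overexpression lie below both controls. The same held for 12 of all 34 members, while 9 members lay above both controls. The share over all genes was not counted, so these counts do not show a lowering. Psmd14 had 156 and 157 CPM in libraries labelled CK1α overexpression, against 150.2 and 147 CPM in controls (0.07 ± 0.04, adjusted p = 0.284). All lid subunits stayed between −0.05 and 0.07 on the log2 scale.

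Of 37 companion genes tested in that comparison, 6 rose and 4 fell, against 13.3% of all genes past the threshold. Maff had 99.8 and 93.3 CPM in libraries labelled CK1α overexpression, against 78.6 and 79.2 CPM in controls (0.29 ± 0.05, adjusted p = 4.89e-05). Nfe2l1 rose by 0.14 ± 0.03, the nuclear activator Psme3 by 0.19 ± 0.04, the inhibitor Psmf1 by 0.19 ± 0.06, and Ddi2, the protease that releases active Nfe2l1, by 0.17 ± 0.05. Vcp fell by 0.17 ± 0.03, the ubiquitin-activating enzyme Uba1 by 0.08 ± 0.03, Mafk by 0.16 ± 0.05 and the deubiquitinase Uchl5 by 0.20 ± 0.07.

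Knockdown of CK1α asks what loss of the kinase does in MEF. Subunits moved in both directions. The lid subunit Psmd11 was 56.4% higher, the ATPase Psmc3 53.6% higher and the chaperone Psmd5 45.9% higher, while the catalytic subunit Psmb5 changed by −28.6%. In all, 14 of 34 members rose and 7 fell, 61.8% of the members, against 54.7% of 14832 genes past the threshold, 28.3% higher and 26.4% lower. The median over members was −0.00, against −0.01 for all genes. Past the threshold and 1.5-fold or more were 2 members, Psmd11 and Psmc3, against 25.6% of genes. The fibroblast markers summed to 4194 and 4288 CPM in knockdown libraries, against 3623 and 3573 CPM in controls. Vim carried that difference (on average 3510.4 CPM with knockdown, against 2653 CPM in controls), while the median marker was at 10.3 and 11.1 CPM in knockdown libraries, against 13.4 and 12.4 CPM in controls. The macrophage markers summed to 309 and 306 CPM in knockdown libraries, against 261 and 255 CPM in controls, most of it Cd68 (on average 295 CPM with knockdown, against 248.98 CPM in controls). The part of these markers in the subunit differences was not tested. With library totals as the scaling 10 members were higher and 7 lower, and with all 12 libraries in a single fit 11 were higher and 10 lower.

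Psmb5 fell to 67.7 CPM in both knockdown libraries, against 96.9 and 92.9 CPM in controls (−0.49 ± 0.06, adjusted p = 6.93e-10). Its copy Gm3375 fell as well (−0.38 ± 0.06, adjusted p = 7.89e-07), and the sum of both gave −0.43 (adjusted p = 3.34e-11). Psmb6 had 117 and 126 CPM in knockdown, against 149 and 132 CPM in control libraries (−0.21 ± 0.06, adjusted p = 0.0013). That call ended without knockdown replicate 1 (−0.16). Psmb7 had 115 and 112 CPM in knockdown, against 117 and 122 CPM in control libraries, and did not pass (−0.07 ± 0.06, adjusted p = 0.274).

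Of the structural core, Psma6 fell and 4 alpha subunits rose. Psma6 had 314 and 306 CPM in knockdown, against 399 and 368 CPM in control libraries (−0.31 ± 0.04, adjusted p = 2.1e-08). Psma2 had 107 and 114 CPM in knockdown, against 91.1 and 87.8 CPM in control libraries (0.31 ± 0.06, adjusted p = 8.64e-06), and Psma3 rose by 0.23 ± 0.05. Psma5 and Psma7 rose by 0.12 and 0.13, calls that ended with library totals, with DESeq2 and without either knockdown library, for Psma5 also without control replicate 2 and for Psma7 without control replicate 1. In the beta rings Psmb2 had 84.6 and 83.4 CPM in knockdown, against 73.2 and 68.3 CPM in control libraries (0.25 ± 0.06, adjusted p = 0.000741), and Psmb4 had 239 and 234 CPM in knockdown, against 280.4 and 269 CPM in control libraries (−0.22 ± 0.05, adjusted p = 4.54e-05).

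In the base, Psmc3 rose most. It had 145 and 144 CPM in knockdown, against 96.6 and 91.8 CPM in control libraries (0.62 ± 0.05, adjusted p = 2.05e-15). The ATPases Psmc2 (0.11 ± 0.04) and Psmc5 (0.15 ± 0.05) rose a little, with calls that ended without either knockdown library or without control replicate 2, and Psmc1, Psmc4 and Psmc6 did not pass. Psmd1 had 146 and 147 CPM in knockdown, against 117 and 113 CPM in control libraries (0.35 ± 0.05, adjusted p = 4.44e-08), and Psmd2 rose by 0.22 ± 0.05. The receptor Psmd4 had 125 and 128 CPM in knockdown, against 137 and 139 CPM in control libraries (−0.12 ± 0.05, adjusted p = 0.0477), a call that ended without either knockdown library, without control replicate 2, and with DESeq2, limma-voom or no filter (adjusted p up to 0.282). The chaperone Psmd5 had 67.5 and 62.5 CPM in knockdown, against 44.0 and 45.1 CPM in control libraries (0.55 ± 0.07, adjusted p = 3.02e-09).

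The lid split into subunits that rose and subunits that fell. Psmd11 had 129 and 128 CPM in knockdown, against 80.4 and 84.1 CPM in control libraries (0.65 ± 0.06, adjusted p = 1.87e-15), and Psmd3 (0.22 ± 0.05) and Psmd7 (0.18 ± 0.06) rose, the call of Psmd7 ending without either knockdown library (adjusted p up to 0.0831). Psmd14 had 92.7 and 97.3 CPM in knockdown, against 114 and 115 CPM in control libraries (−0.27 ± 0.06, adjusted p = 4.18e-05), and Psmd8 had 443 and 422 CPM in knockdown, against 495 and 472 CPM in control libraries (−0.16 ± 0.04, adjusted p = 0.00101), a call that ended without knockdown replicate 2 (adjusted p = 0.117). Psmd6, Psmd12 and Psmd13 did not pass.

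**Figure D3:**
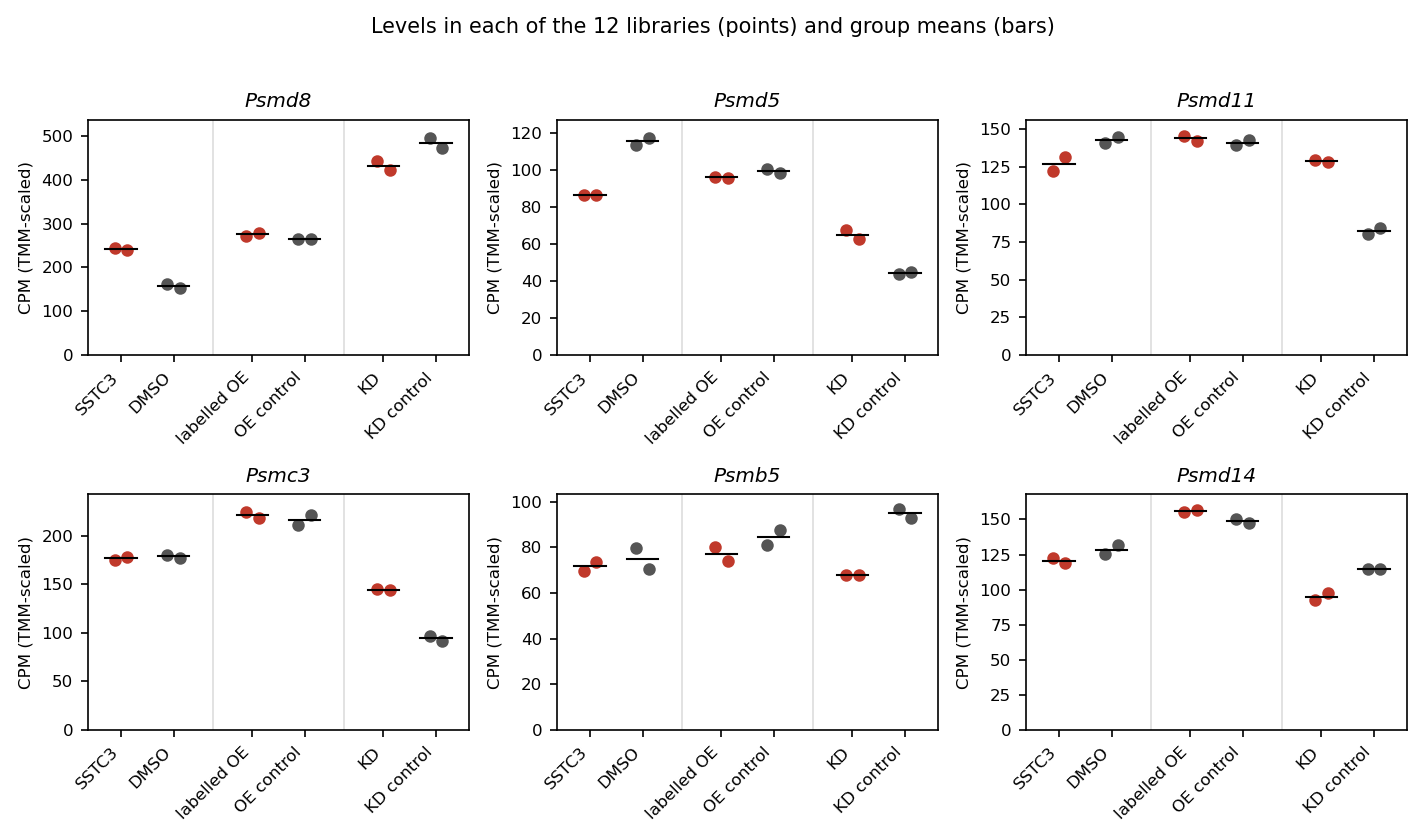
CPM scaled by TMM within each comparison (vertical axes from 0) in single libraries for Psmd8, Psmd5, Psmd11, Psmc3, Psmb5 and Psmd14. Points are libraries, red for SSTC3, labelled overexpression and knockdown and grey for their controls, and bars are group means. Psmd11 sits at 129 and 128 CPM in knockdown libraries, against 80.4 and 84.1 CPM in their controls.

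The immunoproteasome, in which Psmb8, Psmb9 and Psmb10 take the places of Psmb5, Psmb6 and Psmb7, is induced by interferons. In knockdown libraries all 3 of its subunits rose while Psmb5 and Psmb6 fell. Psmb10 had 50.4 CPM in both knockdown libraries, against 9.62 and 7.84 CPM in controls (2.53 ± 0.11, adjusted p = 1.89e-30). Psmb8 had 57.2 and 60.5 CPM in knockdown, against 22.6 and 20.2 CPM in control libraries (1.46 ± 0.09), and Psmb9 had 42.2 and 41.9 CPM in knockdown, against 23.1 and 22.8 CPM in control libraries (0.87 ± 0.09). Per kb of exon, Psmb8 stood at 22.4% and 23.8% of Psmb5 in knockdown libraries, against 6.21% and 5.79% in controls. Psmb10 stood at 88.04% and 90.2% of Psmb7 in knockdown libraries, against 16.5% and 12.9% in controls, and Psmb9 at 18.5% and 17.0% of Psmb6 in knockdown, against 7.94% and 8.82% in control libraries. Psmb8 and Psmb9 overlap antisense neighbours over 14.7% and 5.79% of their exonic bases, and the strand setting of the counting is not given in the sources used here.

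**Figure D4:**
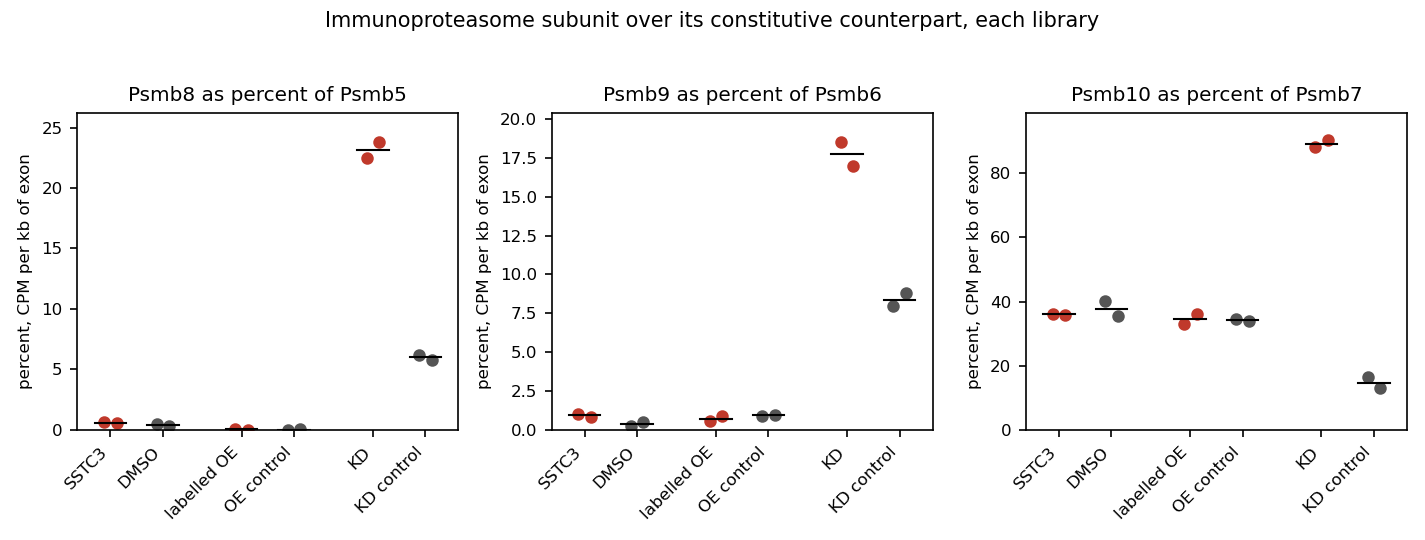
Level per kb of exon of each immunoproteasome subunit as a percent of the constitutive subunit it replaces, in each library (points, red for SSTC3, labelled overexpression and knockdown, grey for controls) with group means (bars). Knockdown libraries lie above their controls in all 3 pairs, as with Psmb10 at 88.04% and 90.2% of Psmb7 against 16.5% and 12.9%.

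In the other sets the ratios of Psmb8 and Psmb9 were low and rest on few counts. Psmb8 stood at 0.643% and 0.563% of Psmb5 with SSTC3, against 0.498% and 0.352% with DMSO, from 16 to 28 counts a library. Psmb9 stood at 1.04% and 0.838% of Psmb6 with SSTC3, against 0.276% and 0.516% with DMSO, from 14 to 43 counts a library, and Psmb9 rose (1.16 ± 0.37, adjusted p = 0.00498). Psmb10 stood at 36.0% and 35.9% of Psmb7 with SSTC3, against 40.1% and 35.5% with DMSO, and at 33.1% and 36.0% in libraries labelled CK1α overexpression, against 34.6% and 33.98% in controls. In those 8 libraries it was the most abundant immunoproteasome subunit per kb.

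Of 37 companion genes tested in knockdown, 12 rose and 16 fell, against 54.7% of all genes past the threshold. The activator subunits Psme1 and Psme2, which are also induced by interferons, rose by 1.38 ± 0.07 and 1.55 ± 0.08 on the log2 scale. Psme1 had 105 and 108 CPM in knockdown, against 39.8 and 41.7 CPM in control libraries. Of 5 regulators of subunit transcription 4 fell, and Nfe2l1 itself did not pass (−0.09 ± 0.04, adjusted p = 0.055). Maff had 54.6 and 59.4 CPM in knockdown, against 149.8 and 149 CPM in control libraries (−1.39 ± 0.06, adjusted p = 2.76e-30), and Nfe2l2 fell by 0.84 ± 0.06. Zfand2a had 148 and 144 CPM in knockdown, against 313 and 317 CPM in control libraries (−1.11 ± 0.05), and the polyubiquitin gene Ubb fell (−0.81 ± 0.04). The shuttle factor Ubqln1 fell by 0.51 ± 0.05, while Nploc4, a cofactor of Vcp, rose by 0.69 ± 0.05.

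SSTC3 and knockdown are meant to move CK1α in opposite directions, and their comparisons share no library. Of the 13 members past the threshold in both, 12 moved in opposite directions. Those lower with SSTC3 and higher with knockdown were Psma2, Psma5, Psmc2, Psmc5, Psmd1, Psmd2, Psmd3, Psmd5, Psmd7 and Psmd11, which are 71.4% of the members that fell with SSTC3 and 71.4% of those that rose with knockdown. Psmb4 and Psmd8 were higher with SSTC3 and lower with knockdown, and Psmd4 was lower in both. Psma2, Psmb4, Psmd1, Psmd3 and Psmd5 kept both calls under every alternative setting run. Each of the other members named here lost at least 1 of its calls under some setting. Among all genes past the threshold in both, 2600 of 4413 (58.9%) moved in opposite directions, and the genes lower with SSTC3 and higher with knockdown were 40.1% of 3439 and 35.6% of 3873. Over the 34 members Pearson's r of the log2 fold changes was −0.40 and Spearman's rho −0.38, against −0.18 and −0.14 over 12431 genes. Genes are not independent replicates, and the sets differ in cells, so these values are a description.

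**Figure D5:**
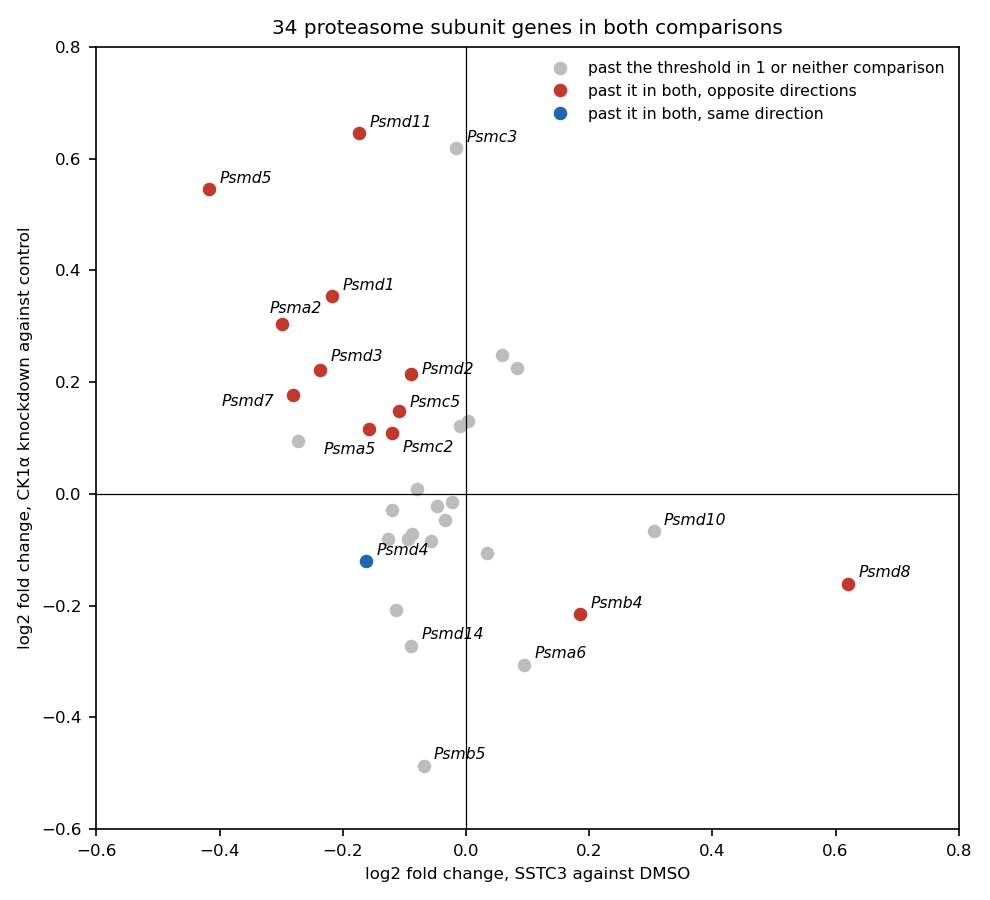
Log2 fold change with SSTC3 against DMSO (horizontal) and with CK1α knockdown against control (vertical) for the 34 genes, 1 point each. Red points passed the threshold in both with opposite directions (12 genes), the blue point, Psmd4, passed in both as lower, and grey points passed in 1 or neither comparison.

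The differences between effects were also tested directly, as interaction contrasts after fitting all 12 libraries together with edgeR. SSTC3 and knockdown effects differed in 19 of 34 members, against 45.1% of 17105 genes. The largest differences were Psmd5, whose SSTC3 effect lay 0.93 ± 0.08 below its knockdown effect on the log2 scale (difference −0.93, adjusted p = 7.53e-17), Psmd8 (0.81 ± 0.06, adjusted p = 1.55e-22) and Psmd11 (−0.79 ± 0.07, adjusted p = 7.18e-17). Knockdown and labelled overexpression effects differed in 17 members, against 35.1% of genes, with Psmd11 (0.58 ± 0.07), Psmd5 (0.57 ± 0.08), Psmc3 (0.55 ± 0.07) and Psmb5 (−0.39 ± 0.09) among them. SSTC3 and labelled overexpression effects differed in 11 members, against 32.7% of genes, and Psmd8 differed most (0.56 ± 0.06, adjusted p = 1.94e-13).

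In all 3 comparisons 9 members did not pass: the alpha subunits Psma1 and Psma4, the beta subunits Psmb1 and Psmb7, the ATPases Psmc1 and Psmc6, the lid subunits Psmd6 and Psmd12 and the chaperone Psmd9. The members past the threshold in all 3 comparisons were Psma5, Psmd2 and Psmd4. Psma5 and Psmd2 were lower with SSTC3 and with labelled overexpression and higher with knockdown, and Psmd4 was lower with SSTC3 and with knockdown and higher with labelled overexpression.

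Members whose exons overlap genes on the other strand were Psmd9 (25.5% of its exonic bases, Gm26745), Psmb7 (11.8%, Nek6), Psmd13 (10.1%, Sirt3), Psmc3 (8.25%, Slc39a13), Psma4 (4.81%), Psma5 (4.54%), Psmd1 (3.47%) and Psmd3 (0.342%). Without strand the reads of both genes cannot be told apart. On the same strand, Psmb5 overlaps Mir686 over 12.1% of its exonic bases and Psmd1 overlaps Gm21972 over 4.14%. Longer genes tended to lie higher with knockdown and lower with SSTC3. Over the 34 members Spearman's rho between exonic length and log2 fold change was 0.40 with knockdown and −0.34 with SSTC3, against 0.08 over 14826 genes and −0.14 over 14144 genes. GC content of the longest coding transcript gave rho of −0.15 with knockdown and −0.20 with SSTC3, and mean level gave 0.01 and 0.14. The part of transcript length in the subunit differences was not tested.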

How the data were processed

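The authors deposited raw counts per gene for 12 libraries of poly(A)+ RNA, made with HISAT2 and featureCounts on mm10, per the submitters' processing notes. The sources used here give no versions, strand setting or annotation. Gene names and lengths were matched through GENCODE M21, and the roles of members were assigned from a fixed list written for this report.

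Each comparison was fitted on the counts of its 4 libraries with edgeR 4.0.16 in R 4.3.3 (filterByExpr, TMM scaling, robust quasi-likelihood F-test, no block), with Benjamini-Hochberg adjustment over all genes tested and a threshold of 0.05. SE is the fold change over the square root of F. Differences between effects were contrasts in a fit of all 12 libraries. DESeq2 1.42.0, limma-voom (limma 3.58.1), other scalings and filters, a replicate block and leaving out libraries were alternatives. Near-identical copies were found with BLAST+ 2.17.0. The fitting code was tested on simulated data. The members, companion genes and marker lists were chosen with earlier results of these data known. Every member was to be described by role, and companion genes named were at most 12 per comparison, by smallest adjusted p among those past the threshold; other companions were named for their role after their values were seen, and 1 companion gene is not reported here. Replicates of a group differed by more than counting noise. Libraries of the overexpression set list 55401 features and those of the other sets 54532, and the 54100 shared ones were used across sets.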

Additional observations from a re-analysis of the deposited data

Results flagged for a closer look

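The effects of a treatment on single subunits differed between the sets of libraries by a test of the difference itself (contrasts in a single edgeR fit of 12 libraries, adjusted over 17105 genes). The sets may differ in cells and handling, which cannot be told apart from the treatments. Values are differences of log2 fold changes.

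SSTC3 and labelled overexpression effects differed in 11 of 34 members, against 32.7% of all genes. The SSTC3 effect was the higher for Psmd8 (0.56), Psmb4 (0.29) and Psma6 (0.16). It was the lower for the chaperone Psmd5 (−0.37), for Psmd7 (−0.29), Psmd4 (−0.28), Psma2 (−0.27), Psmd13 (−0.23), Psmd1 (−0.21), Psmd11 (−0.20) and Psmd3 (−0.19).

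SSTC3 and knockdown effects differed in 19 of 34 members, against 45.1% of all genes. The SSTC3 effect was the higher for Psmd8 (0.81), the catalytic subunit Psmb5 (0.45), Psmb4 (0.43), Psma6 (0.43), Psmd10 (0.40), Psmd14 (0.21) and Psmc6 (0.17). It was the lower for Psmd5 (−0.93), Psmd11 (−0.79), the ATPase Psmc3 (−0.61), Psma2 (−0.57), Psmd1 (−0.54), Psmd3 (−0.43), Psmd7 (−0.43), Psmd13 (−0.34), Psmd2 (−0.28), Psma5 (−0.25), Psmc5 (−0.23) and Psmc2 (−0.20). Psmd4, lower in both comparisons, did not differ past the threshold (−0.01 ± 0.06, adjusted p = 0.945).

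Knockdown and labelled overexpression effects differed in 17 of 34 members, against 35.1% of all genes. The knockdown effect was the higher for Psmd11 (0.58), Psmd5 (0.57), Psmc3 (0.55), Psmd1 (0.34), Psma2 (0.31), Psmd2 (0.29), Psma3 (0.25), Psma5 (0.25), Psmd3 (0.24), Psmc5 (0.19) and Psmc2 (0.18). It was the lower for Psmb5 (−0.39), the deubiquitinase Psmd14 (−0.38), Psma6 (−0.27), Psmd4 (−0.27), Psmd8 (−0.25) and Psmc6 (−0.24).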

How the results depend on the processing

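Of the calls of single members, 2 of 3 higher and 8 of 14 lower with SSTC3, and 9 of 14 higher and 4 of 7 lower with knockdown, were kept under all 13 alternatives, and none of the 4 with labelled overexpression were. No member's call changed direction. With SSTC3, library totals gave 3 members higher and 20 lower. The median there was −0.14 with library totals and −0.11 with no filter, and with knockdown it was −0.0378 with library totals and −0.0396 with all 12 libraries in a single fit. With labelled overexpression, members higher were 3 with library totals and 0 with DESeq2, limma-voom or all 12 libraries, and members lower were 1 with DESeq2; genes called were 607 with DESeq2 and 1188 with all 12 libraries.

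Leaving out 1 library gave 6141 to 6734 genes called with SSTC3, 3 to 4 members higher, 8 to 14 lower (8 without SSTC3 replicate 1) and a median of −0.112 to −0.0599. With labelled overexpression it gave 1065 to 1514 genes, 0 to 2 members higher, 1 to 7 lower and a median of −0.035 to −0.0146: 7 were lower without overexpression replicate 1, 1 lower and 2 higher without overexpression replicate 2, 1065 genes and 1 lower without control replicate 1, and 1212 genes without control replicate 2. With knockdown it gave 6613 to 7583 genes, 9 to 13 members higher (9 without either knockdown library), 5 to 7 lower and a median of −0.02 to 0.02.

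Same-numbered libraries did not deviate together (correlations of −0.0172 with SSTC3, −0.0011 with labelled overexpression and −0.0001 with knockdown). With 2 libraries a group, this cannot settle whether the numbers pair them. With the replicate block, members higher and lower were 3 and 10 with SSTC3, 0 and 2 with labelled overexpression and 14 and 6 with knockdown. With counts of near-identical copies added, chosen after the data were seen, Psma3 and Psmb5 passed with SSTC3. With labelled overexpression Psmb5 passed and Psmb3 did not. Psmb6 has no such copy, and its SSTC3 effect stayed at −0.11. Its edgeR adjusted p moved from 0.0503 to 0.0498 in that refit, just past the threshold. With 2 libraries a group, a lone library left in a group is assumed to vary like the others.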

Other observations

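Companion genes not described above also differed. The core assembly chaperones Psmg1 (−0.29 ± 0.07, adjusted p = 0.000185) and Psmg3 (−0.46 ± 0.12, adjusted p = 0.000744) fell with SSTC3. With knockdown Psmg4, another chaperone of the core, had 39.0 and 40.0 CPM, against 27.5 and 29.6 CPM in controls (0.47 ± 0.09, adjusted p = 7.79e-06). Sem1, a small lid subunit outside the symbol rule, rose with SSTC3 (0.20 ± 0.06, adjusted p = 0.0041) and fell with knockdown to 102 and 94.2 CPM, against 147 and 136 CPM in controls (−0.53 ± 0.06, adjusted p = 1.85e-12).

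The shuttle factor gene Ubqln2 had 0 counts in both knockdown libraries and both of their controls, which allows up to 0.154 to 0.187 CPM by library, counting error only. It had 85.5 to 182 CPM in the other 8 libraries.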
